A study of Mus musculus with 6 samples.

Results

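Fibroblasts from PV-GFP transgenic mouse embryos were induced toward parvalbumin (PV) neurons, and the genes described here are those that differed from fibroblasts in the same direction on every array of induced cells. Of the 6 arrays in the series, 5 were used: 4 arrays of induced cells on one side and 1 array of mouse embryonic fibroblasts (MEF) on the other. The induced arrays were iPV cells at 3, 7 and 14 days after infection, and iPV cells at 14 days that had been sorted for green fluorescence (PV-GFP+). All samples were of strain C57BL/6, carried the PV-GFP transgene and came from embryos of 13.5 days, according to the labels. Induction was by adenovirus. The same text on culture and infection stands in the labels of every sample, MEF included, so the labels do not say whether the MEF cells received a virus, and they do not name the genes it carried. The other array, labelled endogenous parvalbumin neurons, entered no comparison. Its levels entered the choice of probe set and the floor described below and are otherwise given only for reference. Each condition had 1 array. The induced arrays are 3 times and a sort rather than replicates, and all 4 differences share the MEF array, so a peculiarity of that array and a change in the induced cells cannot be told apart.

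Parvalbumin neurons are fast-spiking inhibitory neurons that release GABA. Embryonic fibroblasts are connective tissue cells that secrete collagens, other matrix proteins and the proteases that remodel them, and primary cultures of them can hold macrophages. A gene counted here differed from fibroblasts at the earliest time, at the later times and in the sorted fraction.

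Values were log2 array intensities. Each of 22180 genes was represented by its brightest probe set. A floor was set at 5.01, the median level of the probe sets left once controls were removed, and lower levels were replaced by it. Above the floor on at least 1 of the 5 arrays stood 14168 genes, called measured. For each gene the MEF level was subtracted from each induced level. The smallest difference is the one of the 4 nearest to 0, and a gene counts as shared where all 4 differences were 1 or more, which is 2-fold, in the same direction. Where a floored value enters a fold, the fold is given as "at least". Levels printed for single arrays are the values before the floor. Between 6 and 7 of 7 fibroblast markers stood above the floor on each array, but only 2 to 4 of 7 parvalbumin neuron markers did, on the endogenous-labelled array as well. Gad2, a GABA-synthesising enzyme, and Erbb4, a neuregulin receptor of these neurons, were under the floor on all 6 arrays, and Pvalb itself ranged from 5.23 on MEF to 6.29 on sorted cells. The markers therefore went against a parvalbumin neuron identity on every array, and the names iPV and endogenous PV are used as labels.

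On all 4 induced arrays 136 genes were at least 2-fold higher than on MEF, which is 0.96% of the measured genes. Another 76 genes, or 0.536%, were at least 2-fold lower on all 4. On the single arrays of day 3, day 7, day 14 and sorted cells 318, 376, 466 and 814 genes were 2-fold higher, or 2.24%, 2.65%, 3.29% and 5.75% of measured genes, and 363, 187, 279 and 364 were 2-fold lower, or 2.56%, 1.32%, 1.97% and 2.57%. With no minimum size, 3546 genes (25%) lay above MEF on all 4 arrays and 2717 (19.2%) below it. All 4 differences were 4-fold or more for 31 of the 136 higher genes and for 8 of the 76 lower genes. Centring the arrays on 24 housekeeping genes moved the median mean difference of all measured genes from 0.04 to -0.29 and left 69 higher and 237 lower genes, so the higher genes made up 22.5% of shared genes in place of 64.2%. With quantile normalization they made up 59.9%. Under housekeeping centring 68 of the 136 higher genes and all 76 lower genes kept their call.

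**Figure D1:**
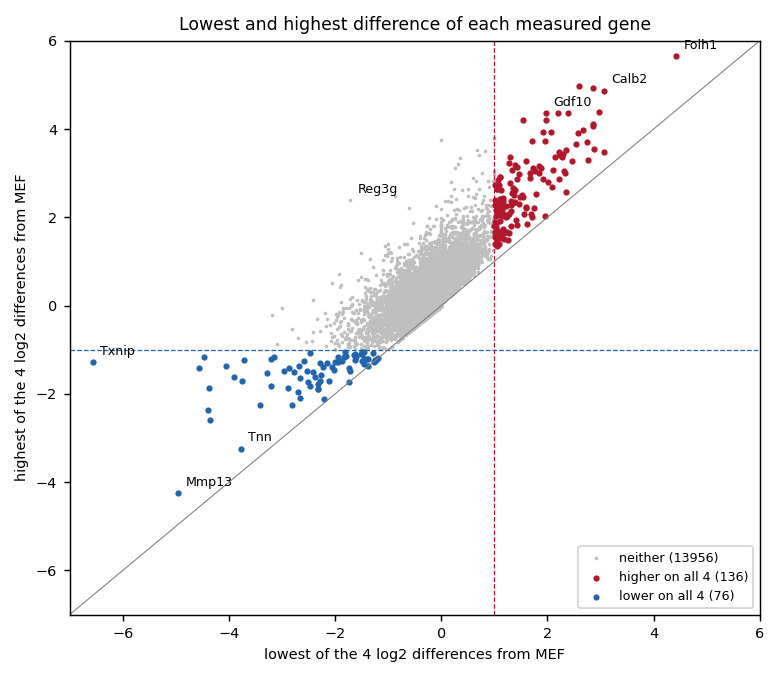
Each point is 1 of the 14168 measured genes, placed by the lowest (x) and highest (y) of its 4 log2 differences from MEF, with dashed lines at 1 and -1. The 136 red genes right of the vertical line and the 76 blue genes below the horizontal line are the shared ones, and Folh1, Calb2, Mmp13 and Tnn lie farthest along the diagonal while Txnip lies far to its left.

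A fit across all measured genes asked whether the MEF array lay outside the spread of the 4 induced arrays (limma, induced minus MEF, with the lone MEF array assumed to vary as the induced arrays did). At an adjusted p under 0.05 it called 39 genes higher, or 0.275%, and 17 lower, or 0.12%, and 1380 genes had an unadjusted p under 0.05. Of these calls 38 of 39 and 17 of 17 were also shared by the size rule. The exception was Cdh12, a cadherin named after its values were seen (adjusted p = 0.026), which was 3.14 on MEF, far under the floor, so that its floored differences were only 0.62 to 1.57. The fit used levels before the floor, and 14 of the 39 higher calls had MEF under it and 7 of the 17 lower calls at least 1 induced array, so for these genes the fitted difference is no measured size and is not given. The size rule used the same 5 arrays and probe sets, so its overlap with the limma calls is no independent check. No variance of MEF was measured, and the p-values below set each gene's distance against the spread of the induced arrays alone. The time course and the sort are part of this spread, so genes that varied among the induced arrays had large standard errors. Fitted on floored values in place of unfloored ones, limma called 0 genes in either direction, with 1513 at an unadjusted p under 0.05 and a lowest adjusted p of 0.0691. Without day 3, day 7, day 14 or sorted cells it called 12, 45, 24 or 13 genes higher, of which 9, 33, 18 and 13 were among the 39, and 2, 29, 7 or 3 lower, of which 2, 14, 5 and 3 were among the 17. The limma values below therefore depend on whether levels were floored and on single arrays. An exact permutation test of 4 arrays against 1 cannot give a p below 0.2.

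By smallest floored difference the first of the higher genes was Folh1, a membrane peptidase that releases glutamate from folates and from a brain dipeptide. Its log2 level was 4.32 on MEF, under the floor, and 9.58, 10.67, 9.65 and 9.44 on day 3, day 7, day 14 and sorted cells. Every induced level was at least 21.5-fold above MEF (limma adjusted p = 0.00918). Calb2, the calcium-binding protein calretinin, which marks a class of interneurons other than the parvalbumin class, was second. Both genes were under the floor on MEF, so their order follows their induced levels only. Calb2 stood at 2.44 on MEF and at 8.09, 8.28, 9.45 and 9.88 on the induced arrays in the same order, at least 8.42-fold higher on each (adjusted p = 0.0161). Both arrays of day 14 cells had higher Calb2 levels than the earlier ones. Angpt1, the ligand of the endothelial receptor Tie2, was 5.56 on MEF and 8.68, 9.04, 8.62 and 8.69 on the induced arrays. Its induced levels were close together, and the smallest difference was 8.34-fold (adjusted p = 0.00918).

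**Figure D2:**
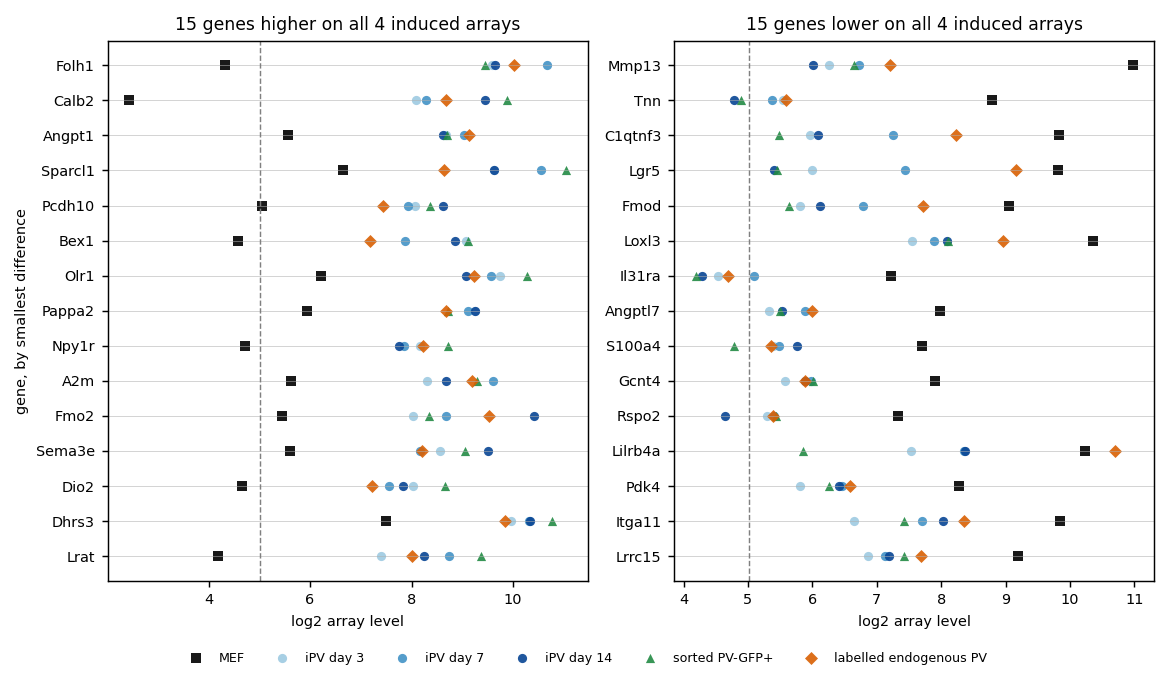
Log2 level (x) on each of the 6 arrays, 1 symbol per array, of the 15 higher (left) and 15 lower genes (right) with the largest smallest differences, and the floor of 5.01 as a dashed line. The MEF square stands apart from all 4 induced symbols for every gene, and the diamond of the array labelled endogenous PV lies among or near the induced symbols for most genes but near or beyond the square for Lgr5 and Lilrb4a.

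Several secreted and surface proteins followed. Sparcl1, a matricellular protein, was 6.65 on MEF and 9.62, 10.55, 9.62 and 11.05 on the induced arrays, so the smallest difference was 7.82-fold. Pcdh10, an adhesion protein of the protocadherin family, was 5.05 on MEF and 8.08, 7.92, 8.61 and 8.35 on the induced arrays. Olr1, a receptor for oxidised low-density lipoprotein, was 6.22 on MEF and between 9.08 and 10.28 on the induced arrays. These genes were chosen by their smallest difference, so a gap between MEF and every induced level was set by the choice. The fitted differences from limma, on the same arrays, were 3.555, 3.188 and 3.449 in this order. Pappa2, a protease that cleaves the growth factor carrier Igfbp5, was 5.95 on MEF and 9.26, 9.11, 9.24 and 8.72 on the induced arrays (adjusted p = 0.0139). Igfbp5 itself was higher as well, at 7.94 on MEF and between 9.27 (day 14) and 11.01 (sorted) on the induced arrays, but its spread was wider and it missed the limma threshold (adjusted p = 0.218) and its smallest difference fell to 0.83 under housekeeping centring. Dio2, which activates thyroid hormone, was 4.67 on MEF and between 7.55 and 8.67 on the induced arrays (adjusted p = 0.0205). A2m, a plasma protease inhibitor, was 5.63 on MEF and between 8.30 and 9.60 on the induced arrays (adjusted p = 0.0357). Fmo2, a flavin monooxygenase, differed by 6.02-fold or more but peaked on day 14, at 10.42 against 8.03 on day 3, and missed the threshold (adjusted p = 0.176).

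Dhrs3 and Lrat, both enzymes of retinoid metabolism, were among the 15 higher genes of largest smallest difference. Dhrs3, which turns retinal back into retinol, was 7.50 on MEF and 9.95, 10.32, 10.33 and 10.76 on day 3, day 7, day 14 and sorted cells. Lrat, which stores retinol as an ester, was 4.18 on MEF, under the floor, and 7.41, 8.73, 8.25 and 9.37 on the induced arrays. Both passed in limma (adjusted p = 0.0194 and 0.0391), with smallest differences of 5.49-fold and at least 5.26-fold. After these values were seen, Rarb, a retinoic acid receptor, and Cyp26b1, which degrades retinoic acid, were looked up. Rarb was 4.74 on MEF and 7.87, 7.25, 8.43 and 8.04 on the induced arrays (adjusted p = 0.0295). Cyp26b1 was 6.77 on MEF and climbed across the arrays from 7.85 on day 3 to 9.50 on sorted cells, past 2-fold on each but not past the limma threshold (adjusted p = 0.261), and it fell under 2-fold with housekeeping centring. The promoter of Rarb is shown because it holds the direct repeat known as its retinoic acid response element. The window is the 250 bases before the start site in RefSeq on the build GRCm38.p6, at chr14:16575477-16575726 on the minus strand, with the repeat, GTTCA followed by 6 bases of any kind and GTTCA again, in capitals together with those 6 bases.
Rarb: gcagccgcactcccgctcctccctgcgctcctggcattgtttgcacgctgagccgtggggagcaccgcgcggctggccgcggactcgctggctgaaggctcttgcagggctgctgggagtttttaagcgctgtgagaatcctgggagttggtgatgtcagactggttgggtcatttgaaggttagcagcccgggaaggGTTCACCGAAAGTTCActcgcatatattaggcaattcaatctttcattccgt
The repeat was searched on both strands of the window of 300 bases around each start site, and 36 bases separate it from the start. Among the 102 higher genes with a promoter in the table it was found at 1 gene (0.98%), and over the 27025 genes in the table at 24 (0.0888%). This motif was chosen after the values were seen, so the match is a description of that promoter.

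Signalling genes of the TGF-beta and BMP family were 6 higher and 2 lower of 28 measured, the largest number in any of the 37 gene lists. The lists differ in size, and over all measured genes 0.96% were shared higher and 0.536% lower. Among the ligands, Bmp7 was 5.44 on MEF and 7.58, 7.32, 7.16 and 9.17 on day 3, day 7, day 14 and sorted cells. Gdf10 was 5.30 on MEF and 7.92, 9.67, 7.27 and 7.69, with its peak on day 7. Bmp6 and Gdf6 had smallest differences of 1.04 and 1.15 on the log2 scale, and both dropped under 2-fold with housekeeping centring. Id2 and Id3, inhibitors of basic helix-loop-helix factors and classic BMP targets, were the family members that limma called higher. Id2 was 6.70 on MEF and 9.76, 9.17, 9.01 and 9.72 on the induced arrays (adjusted p = 0.0295), and Id3 was 7.48 on MEF and 9.33, 9.08, 9.59 and 9.68 (adjusted p = 0.0447). The lower pair was a ligand and an antagonist. Tgfb3 was 9.99 on MEF and 7.70, 8.29, 8.03 and 8.16 on the induced arrays (adjusted p = 0.0399). Grem1, which blocks BMP ligands, was 9.66 on MEF and 7.09, 8.46, 6.45 and 6.46, closest to MEF on day 7 (adjusted p = 0.263). Over the 28 measured members the median mean difference was 0.29, against 0.04 over all measured genes, and it became -0.10 under housekeeping centring, where all measured genes had -0.29.

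In the Wnt pathway list 2 of 29 measured members were higher and 2 lower on all 4 arrays. Over all measured genes the shares were 0.96% and 0.536%. Wnt4, a ligand, was 5.41 on MEF and between 6.55 and 6.95 on the induced arrays (adjusted p = 0.0942), and fell under 2-fold with housekeeping centring. Frzb, a secreted antagonist that binds Wnt ligands, was 6.30 on MEF and 8.93, 8.41, 9.07 and 9.37 on day 3, day 7, day 14 and sorted cells (adjusted p = 0.0354). The lower genes were a ligand and its receptor. Rspo2, which strengthens Wnt signals, was 7.33 on MEF and 5.30, 5.40, 4.65 and 5.43 on the induced arrays, at least 3.72-fold lower (adjusted p = 0.0578). Lgr5, a receptor for the R-spondins, was 9.81 on MEF and 6.00, 7.44, 5.41 and 5.45 on the induced arrays (adjusted p = 0.0997). The level of Lgr5 on day 7 stood between MEF and the other induced arrays. A second probe set of Lgr5 above the floor was lower as well, by 0.59 on each array, which is its distance to the floor.

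Axon guidance genes were 4 of 31 measured members higher and 0 lower, against 0.96% and 0.536% of all measured genes. Sema3e, a secreted repellent, was 5.60 on MEF and 8.57, 8.17, 9.50 and 9.05 on day 3, day 7, day 14 and sorted cells (adjusted p = 0.038). Sema6a, a membrane semaphorin, was 6.88 on MEF and between 8.34 and 9.18. Sema3c and Plxna2, a secreted semaphorin and a semaphorin receptor, only just passed, with smallest differences of 1.02 and 1.01. Of these 4 genes only Sema3e stayed past 2-fold under housekeeping centring. The list median moved from 0.26 to -0.11 there, while that of all measured genes moved from 0.04 to -0.29.

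Genes of the interferon response were 4 of 27 measured members higher and 0 lower, against 0.96% and 0.536% of all measured genes. Above MEF on all 4 arrays lay 18 of 27, against 25% of all measured genes. Bst2, or tetherin, which holds virus particles on the cell surface, was 7.95 on MEF and 10.31, 9.91, 10.45 and 9.47 on day 3, day 7, day 14 and sorted cells. Usp18, which removes the ubiquitin-like protein Isg15, was 6.69 on MEF and 8.42, 8.08, 9.30 and 8.92. Irf7, a transcription factor of the interferon genes, was 6.58 on MEF and 7.60, 8.17, 9.31 and 8.35. Day 14 was the highest induced array for each of these 3 genes. Oasl1, related to the 2'-5' oligoadenylate synthetases, was 4.95 on MEF and between 6.32 (day 7) and 7.37 (day 14). None of the 4 passed in limma (adjusted p from 0.0935 for Bst2 to 0.326 for Irf7), and Usp18, Irf7 and Oasl1 fell under 2-fold with housekeeping centring. The number of members 2-fold above MEF differed by array, with 6 on day 3, 4 on day 7, 14 on day 14 and 10 on sorted cells, and 0 were 2-fold below it on any array. Over all measured genes the shares on these arrays were 2.24%, 2.65%, 3.29% and 5.75%. The list median of the mean difference was 0.51, and 0.12 under housekeeping centring.

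The promoter of Bst2 is shown because it holds the core of the interferon-stimulated response element, here GAAA, any 2 bases and GAAA, and Bst2 had the largest smallest difference in the list. The window is the 250 bases before the start site at chr8:71537473-71537722 on the minus strand of GRCm38.p6, from RefSeq, with overlapping matches to the core in capitals.
Bst2: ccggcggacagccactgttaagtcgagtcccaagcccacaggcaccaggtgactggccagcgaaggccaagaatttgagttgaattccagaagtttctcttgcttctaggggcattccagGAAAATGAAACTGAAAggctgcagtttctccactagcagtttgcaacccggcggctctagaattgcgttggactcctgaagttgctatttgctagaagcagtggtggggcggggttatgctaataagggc
Searched on both strands of the window of 300 bases, the core was found at 12 of the 20 genes of the interferon list that had a promoter (60%) and at 3.99% of all 27025 genes. It was found at 6 of 102 matched higher genes (5.88%) and at 4 of 56 matched lower genes (7.14%). The higher genes with a match were Bst2, Dhrs3, Dpp4, Saa3, Sema6b and 2610528A11Rik, so of the 4 shared interferon genes only Bst2 was among the matches. Whether Usp18, Irf7 and Oasl1 were among the 20 genes with a promoter is not given here.

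Acute-phase and complement genes were 4 of 11 measured members higher and 0 lower, against 0.96% and 0.536% of all measured genes. Saa3, an acute-phase lipid carrier, was already high on MEF at 10.12 and was 12.54, 13.13, 12.69 and 12.45 on day 3, day 7, day 14 and sorted cells. Lcn2, which binds bacterial iron carriers, was 8.98 on MEF and 10.99, 11.77, 11.71 and 11.31. Both passed in limma (adjusted p = 0.0205 and 0.0357), with smallest differences of 5.02-fold and 4.03-fold. Hp, haptoglobin, was 5.05 on MEF and varied more, with 6.34 on day 3 and 8.40 on day 7. Cp, the copper carrier ceruloplasmin, was 7.91 on MEF and between 8.93 and 9.58 on the induced arrays, and it fell under 2-fold with housekeeping centring. The list median moved with the array, from 0.06 on day 3 to 2.22 on day 7, 0.89 on day 14 and 0.72 on sorted cells, and 8 of 11 members were 2-fold higher on day 7 against 4 on day 3, where 2.65% and 2.24% of all measured genes were. Il6, a cytokine that induces such genes in liver, was the 1 shared member of the 19 measured genes in the chemokine and cytokine list, at 6.59 on MEF and 8.63, 7.84, 8.86 and 7.73 on the induced arrays. It missed the limma threshold (adjusted p = 0.261) and fell under 2-fold with housekeeping centring. The list leaves out other shared chemokines chosen after their values were seen, Cxcl13, at 5.84 on MEF and between 7.56 and 8.97 on the induced arrays, and Cxcl15, at 6.39 on MEF and under the floor on all 4 (adjusted p = 0.0942 and 0.0337).

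**Figure D3:**
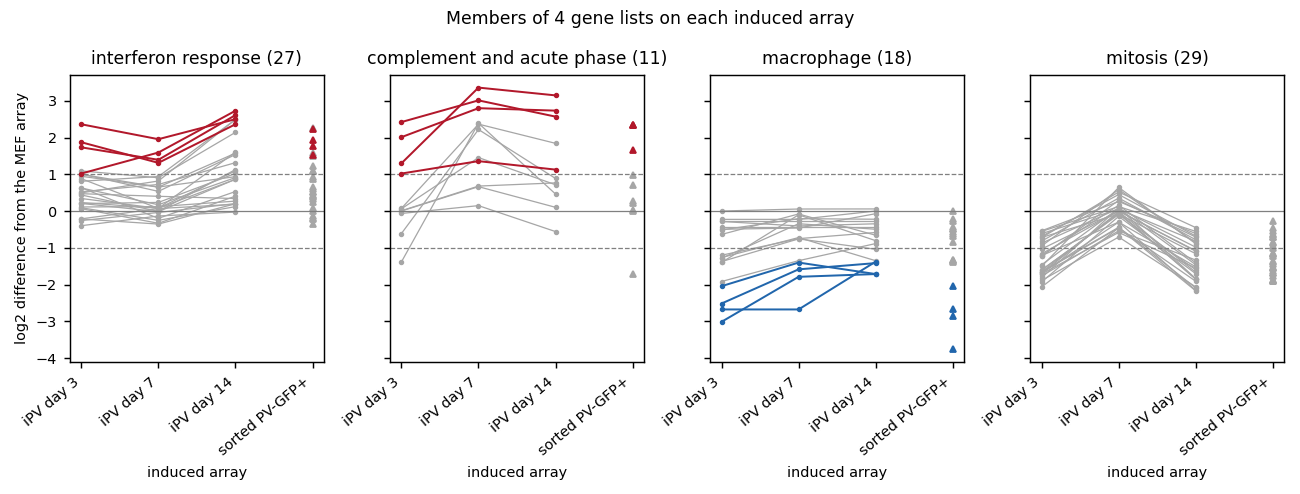
Each line or triangle is 1 measured member of the list named above the panel, with its log2 difference from MEF (y) on day 3, day 7, day 14 (joined) and sorted cells (triangle), red for shared higher genes, blue for shared lower genes and grey for the others, and dashed lines at 1 and -1. Interferon members had their highest median on day 14, 8 of 11 acute-phase members passed 1 on day 7, macrophage members lay mostly below 0 with 4 blue genes, and the mitosis members lay around 0 on day 7 and below it on the other arrays.

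Among the lower genes Mmp13, a collagenase, had the largest difference. It was 10.97 on MEF and 6.26, 6.72, 6.01 and 6.64 on day 3, day 7, day 14 and sorted cells. Every induced level was lower by 19-fold or more, and the limma difference was -4.56 ± 0.32 (SE, adjusted p = 0.00905). Other matrix proteases were lower with more spread. Mmp3, stromelysin, was 10.64 on MEF and 6.77, 9.32, 9.48 and 6.18 on the induced arrays, far lower on day 3 and sorted cells than on the other arrays (adjusted p = 0.522). Timp3, an inhibitor of these proteases, was 10.93 on MEF and between 9.44 and 9.89, just past the threshold. In the list of matrix proteases and inhibitors 3 of 19 measured members were lower and 1 was higher. Over all measured genes 0.536% were shared lower and 0.96% higher. The higher member was Fap, a serine protease of activated fibroblasts, at 7.23 on MEF and 9.27, 9.26, 9.18 and 9.24, the narrowest range of the 136 higher genes (adjusted p = 0.0194).

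The promoter of Mmp13 is shown because it is the lower gene of largest difference and holds an AP-1 site, TGACTCA, a motif chosen after the values were seen. The window is the 250 bases before the start site at chr9:7272264-7272513 on the plus strand of GRCm38.p6, from RefSeq, with the site in capitals, 28 bases before the start.
Mmp13: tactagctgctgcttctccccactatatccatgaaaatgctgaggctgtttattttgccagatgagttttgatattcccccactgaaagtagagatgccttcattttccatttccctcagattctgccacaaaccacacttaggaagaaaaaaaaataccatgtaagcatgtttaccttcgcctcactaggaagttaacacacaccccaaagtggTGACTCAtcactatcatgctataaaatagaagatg
The same letters, on either strand, were found at 6 of 56 matched lower genes (10.7%), at 7 of 102 matched higher genes (6.86%) and at 5.95% of all 27025 genes. The lower genes with a match were Mmp13, Mmp3, Mmp12, Lrrc15, Gpnmb and Rcan1. Of these genes only Mmp13 also held the interferon core elsewhere in the window. The other lower genes with that core were Chl1, Ctss and Fbln5.

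Secreted matrix glycoproteins and proteoglycans were 5 of 27 measured members lower and 1 higher, against 0.536% and 0.96% of all measured genes. Fmod, fibromodulin, which binds collagen fibrils, was 9.05 on MEF and 5.80, 6.79, 6.12 and 5.64 on day 3, day 7, day 14 and sorted cells (adjusted p = 0.0373). Its second probe set differed by -2.59 to -2.14 on the 4 arrays, past the threshold too. Prelp and Aspn, related small proteoglycans, varied much more: Prelp was 10.95 on MEF and 6.39, 9.54, 8.78 and 7.63, and Aspn was 11.67 on MEF and 8.61, 10.44, 8.56 and 7.94. For both, day 7 was the induced array closest to MEF, and neither passed in limma (adjusted p = 0.398 and 0.282). Prelp's second probe set was near the floor on MEF and could not show a 2-fold fall. Fbln5, an elastic fibre protein, was 9.99 on MEF and between 8.55 and 8.78, and Thbs1, thrombospondin, was 12.94 on MEF and between 11.29 and 11.83. The higher member, Ogn, another small proteoglycan, was 10.58 on MEF and between 11.59 and 11.98 and fell under 2-fold with housekeeping centring.

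Among 21 measured collagens 1 was lower and 1 higher on all 4 arrays, against 0.536% and 0.96% of all measured genes. Col6a3, of the microfibril collagen, was 9.67 on MEF and 7.15, 7.94, 7.48 and 7.56 on day 3, day 7, day 14 and sorted cells (adjusted p = 0.043). Col14a1, a fibril-associated collagen, was 4.86 on MEF and 7.67, 7.29, 7.52 and 8.39 (adjusted p = 0.0357). The chains of the main fibroblast collagen were not among the shared genes. Col1a1 was 12.31 on MEF and 11.41, 12.28, 12.25 and 12.39 on the induced arrays, and Col1a2 was 12.10 and 10.79, 11.74, 11.59 and 11.62. Of the genes that act on collagen, Loxl3, a cross-linking oxidase, was 10.36 on MEF and between 7.55 and 8.10 on the induced arrays (adjusted p = 0.0205), and Itga11, a collagen receptor, was 9.85 on MEF and between 6.65 and 8.03 (adjusted p = 0.114). The mesenchymal identity list had 1 lower and 0 higher of 22 measured members, S100a4, a calcium-binding protein used as a fibroblast marker, at 7.71 on MEF and 5.38, 5.48, 5.76 and 4.78 on the induced arrays (adjusted p = 0.0485). Vim, vimentin, stopped just short with a smallest difference of -0.98.

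Other lower genes of large difference had varied roles. Tnn, tenascin-N of bone and tendon matrix, was 8.79 on MEF and 5.55, 5.38, 4.79 and 4.89 on day 3, day 7, day 14 and sorted cells, at least 9.46-fold lower (adjusted p = 0.0139). C1qtnf3, a secreted protein of the adiponectin family, was 9.84 on MEF and 5.96, 7.25, 6.09 and 5.49 (adjusted p = 0.0514). Il31ra, a cytokine receptor subunit, was 7.22 on MEF and between 4.19 and 5.09, at or near the floor on the induced arrays (adjusted p = 0.0337). Pdk4, a kinase that shuts pyruvate out of mitochondrial oxidation, was 8.28 on MEF and between 5.80 and 6.46 (adjusted p = 0.0435). Angptl7, a secreted angiopoietin-like protein, was 7.99 on MEF and between 5.33 and 5.89 (adjusted p = 0.0194). Txnip, an inhibitor of glucose uptake, was the lower gene that varied most among the induced arrays, at 11.76 on MEF, 5.19 on day 3 and 10.48, 10.18 and 10.20 on the later arrays (adjusted p = 0.682). Its call on all 4 arrays rests on a difference of -1.27, while its day 3 difference was -6.57. Hk2 and Pfkl, enzymes of glycolysis, were the 2 shared members of 17 measured in that list, with smallest differences of 1.42 and 1.001, and both fell under 2-fold with housekeeping centring.

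Macrophage genes were 4 of 18 measured members lower and 0 higher, against 0.536% and 0.96% of all measured genes. Below MEF on all 4 arrays lay 16 of 18, against 19.2% of all measured genes. Lyz2, lysozyme, was 9.78 on MEF and 6.76, 7.99, 8.07 and 6.03 on day 3, day 7, day 14 and sorted cells. Fcer1g, a signalling chain of antibody receptors, was 8.32 on MEF and 5.80, 6.73, 6.90 and 5.45. Ctss, cathepsin S, was 7.69 on MEF and 4.95, 4.91, 6.31 and 4.32. For Lyz2 and Fcer1g the levels were lowest on sorted cells and on day 3, and limma called none of the 4 (adjusted p from 0.207 for Ctss to 0.285 for Adgre1). Adgre1, an adhesion receptor that marks macrophages, was 7.07 on MEF and between 3.84 and 5.66 on the induced arrays. The summed level of the 20 list members was 11.34 on MEF and 9.51, 10.19, 10.21 and 9.46 on the induced arrays on the log2 scale, and 11.55 on the array labelled endogenous PV. Of the defining markers, Ptprc was under the floor on all 6 arrays and Csf1r was between 5.12 and 5.78. Other lower genes known from macrophages were Lilrb4a, Ms4a7, Msr1 and Mmp12, and the part that the macrophage content of the cultures has in the lower genes was not tested. In bulk RNA fewer cells of a type and less RNA per cell cannot be told apart.

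Of 11 measured parvalbumin interneuron genes 0 were past 2-fold on all 4 arrays, of 18 synaptic vesicle and active zone genes 0 were, and of 24 pan-neuronal genes 1 was, Bex1, an adaptor protein found in neurons. Over all measured genes 0.96% were shared higher, so in lists of this size counts of 0 or 1 set nothing apart. With no minimum size, 7 of the 11, 9 of the 18 and 11 of the 24 lay above MEF on all 4 arrays, against 25% of all measured genes. Below it lay 0, 0 and 1, against 19.2%. The median mean difference of the 11 parvalbumin interneuron genes was 0.39, against 0.04 over all measured genes. Under housekeeping centring these medians were 0.01 and -0.29. Shared genes known from neurons also lie outside the lists, such as Dner, Cntn1, Scn3b, Gabra3 and Prph, which were chosen after their values were seen (Cntn1 fell under 2-fold with housekeeping centring). Bex1 was 4.58 on MEF, under the floor, and 9.08, 7.88, 8.86 and 9.12 on day 3, day 7, day 14 and sorted cells (adjusted p = 0.0194). Snap25, a protein of the vesicle fusion machinery, was just outside the threshold, with 4.44 on MEF and 6.00, 6.44, 6.90 and 8.05 on the induced arrays. Of the other pan-neuronal markers, Map2 was below MEF on all 4 induced arrays, with differences from -1.13 to -0.01. Dcx was under the floor on all 6 arrays. Rbfox3 ran from -0.34 to 0.35 and Stmn2 from -0.45 to 0.50. Tubb3 and Syt1 were above MEF on all 4, with lowest differences of 0.09 and 0.04. On sorted cells 11 of the 24 pan-neuronal genes were 2-fold above MEF, and 1, 3 and 2 were on day 3, day 7 and day 14, where the shares over all measured genes were 5.75% on sorted cells and 2.24%, 2.65% and 3.29% on the others. In the list of other interneuron and neuropeptide genes 3 of 12 measured members were higher and 1 lower. Besides Calb2 these were Npy1r, a neuropeptide Y receptor, at 4.72 on MEF and 8.17, 7.86, 7.75 and 8.71 on the induced arrays (adjusted p = 0.0194), and Cck, cholecystokinin, at 7.11 on MEF and 10.06, 8.71, 9.61 and 10.38 (adjusted p = 0.148). The lower member was Ndnf, a secreted neurotrophic factor, at 6.75 on MEF and between 4.40 and 5.34. Of 6 measured GABA genes Abat, which degrades GABA, was shared, at 5.79 on MEF and between 7.10 and 7.94, but it fell under 2-fold with housekeeping centring. Its second probe set was under the floor on MEF and on 3 of the 4 induced arrays and did not show this rise.

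**Figure D4:**
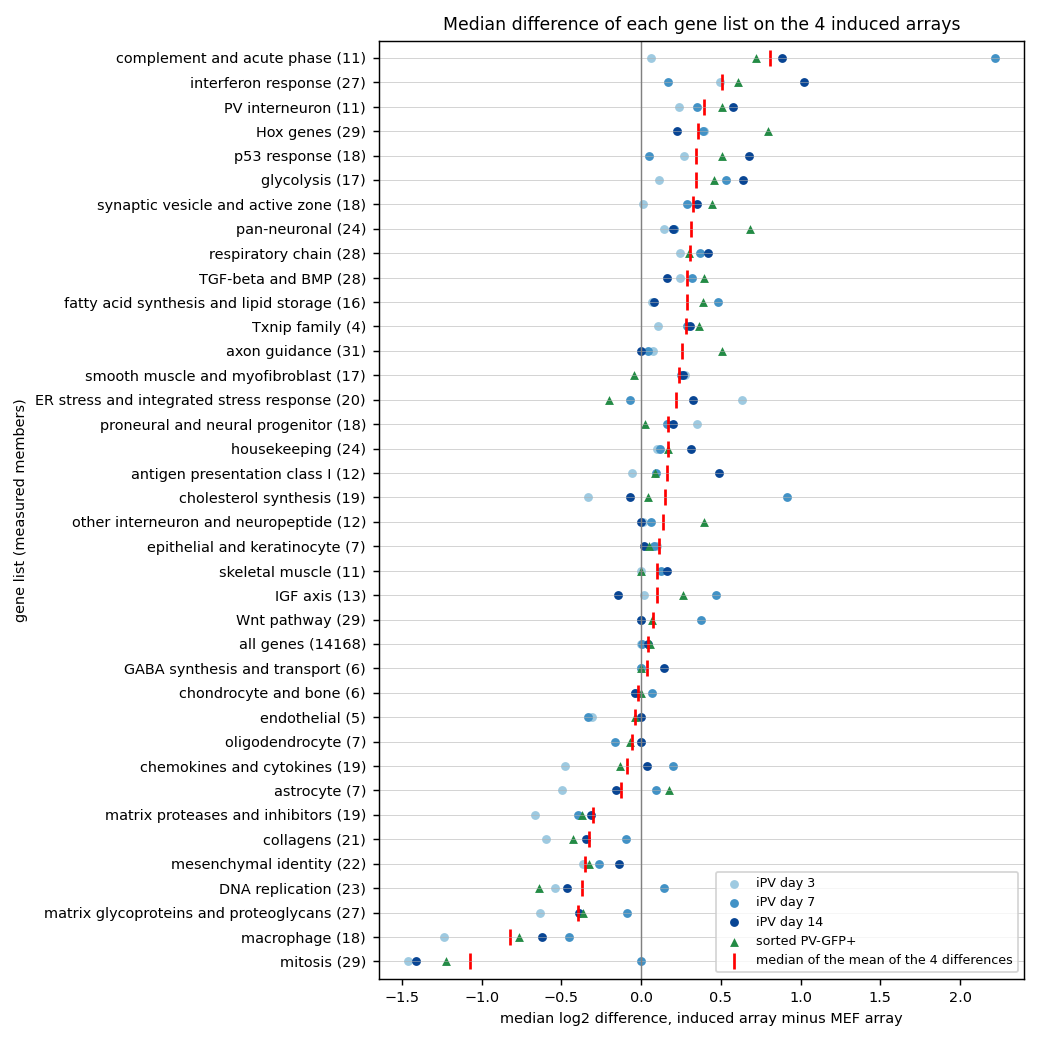
For each of the 37 gene lists and all genes, the median log2 difference from MEF over measured members (x, number in brackets) on each of the 4 induced arrays, with a red bar for the median of the mean difference, from highest to lowest. The acute-phase list is at the top with 0.81 and day 7 far to the right, and the macrophage and mitosis lists are at the bottom with -0.82 and -1.07, the day 7 point of the mitosis list lying at about 0.

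Mitosis genes had the lowest list median and no shared gene. Of 29 measured members 20, 19 and 18 were 2-fold lower on day 3, day 14 and sorted cells, and 0 were on day 7, where the differences ran from -0.71 to 0.64. Of all measured genes 2.56%, 1.97% and 2.57% were 2-fold lower on the first 3 of these arrays and 1.32% on day 7. Leaving the day 7 array out, 17 of the 29 were lower on the other 3 arrays, and the count of lower genes over all measured genes went from 76 to 154. The all-array rule therefore leaves this group out, by the level on 1 array.

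Within the shared genes the induced arrays were not alike. The range of the 4 differences had a median of 1.04 in the higher genes and 0.66 in the lower genes, against 0.47 over all measured genes. Floored levels narrow this range, so these medians are not on an equal footing. At least 1 induced array was under the floor for 20 of the 76 lower genes and for 0 of the 136 higher genes. The same held for 2808 of all measured genes. Sorted cells had the highest induced level for 68 of the 136 higher genes (50%), against 32.4% of all measured genes, and the lowest for 9 (6.62%). Day 3 had the lowest level for 50 of them (36.8%), against 31.3% of all measured genes. Among the 76 lower genes day 7 had the highest induced level for 29 (38.2%), against 20.3% of all measured genes, and sorted cells had the lowest for 29 (38.2%), against 21.9%. The steadiest higher genes by range were Pde8b, Fap, Gabra3, Cyp7b1 and Pitpnc1. Pde8b, a cyclic AMP phosphodiesterase, was 5.58 on MEF and 8.14, 7.94, 7.98 and 7.995 on day 3, day 7, day 14 and sorted cells (adjusted p = 0.0139). The most variable higher genes included Kcnn3, a calcium-activated potassium channel, at 5.26 on MEF and 7.87, 6.80, 6.91 and 9.47, and Prl8a9, of the prolactin family, at 5.37 on MEF and 8.05, 7.34, 9.58 and 7.61. Ankrd1, a cardiac and YAP-responsive ankyrin protein, was 7.50 on MEF and 11.86, 9.69, 11.55 and 10.52. None of these 3 passed in limma (adjusted p = 0.415, 0.249 and 0.146).

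**Figure D5:**
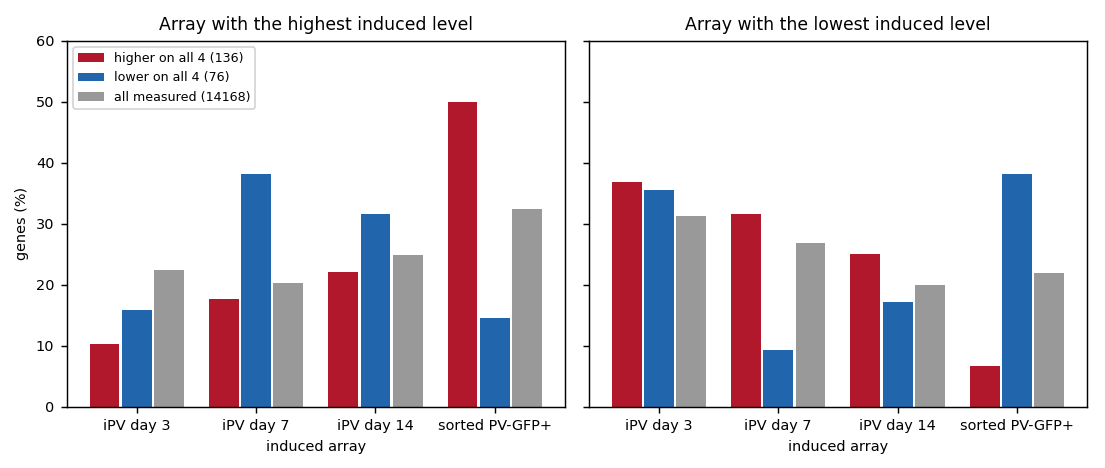
Percentage of genes (y, from 0) whose highest (left) or lowest (right) induced level was on each induced array (x), for the 136 higher genes (red), the 76 lower genes (blue) and all 14168 measured genes (grey). Sorted cells held the highest level of 50% of higher genes and the lowest level of 38.2% of lower genes, and day 7 held the highest level of 38.2% of lower genes.

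Some genes went in opposite directions. A 2-fold higher level on 1 induced array and a 2-fold lower level on another were found for 10 genes, led by Reg3g, an antibacterial lectin, at 6.73 on MEF and 5.34, 9.12, 7.19 and 4.15 on day 3, day 7, day 14 and sorted cells. Egr1, an immediate early factor, was 7.13 on MEF and 5.62, 5.69, 8.33 and 7.43. The threshold cut through a continuum. Just inside for higher genes were Plxna2, Ogn and Pfkl with smallest differences of 1.009, 1.005 and 1.001, and just outside were Tnnt2, Acpp and Snap25 with 0.997, 0.996 and 0.988. For lower genes Mmp12, Lhx9 and Timp3 were inside at -1.06, -1.05 and -1.05, and Col10a1, Mamdc2 and Pdgfc outside at -0.99, -0.99 and -0.98.

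The array labelled endogenous PV was not compared with any other to choose these genes, though its levels entered the choice of probe set and the floor. Its level lay within the range of the 4 induced arrays for 62 of the 136 higher genes, below it for 55 and above it for 19. For the 76 lower genes it lay within the range for 18, above it for 56 and below it for 2. Over all 14168 measured genes it lay within the range for 9060, below it for 2813 and above it for 2295. The median level of the higher genes was 5.81 on MEF, 8.03, 8.06, 8.27 and 8.58 on day 3, day 7, day 14 and sorted cells, and 8.01 on the endogenous-labelled array. The median level of the lower genes was 8.44 on MEF, 6.03, 6.77, 6.57 and 6.05 on the induced arrays and 7.58 on that array. By median level that array was near the induced arrays for the higher genes and between them and MEF for the lower genes. The genes were chosen with MEF apart from the induced arrays. A peculiarity of the MEF array and a likeness to the induced arrays therefore cannot be told apart. Among the lower genes Lyz2, at 10.05, and Lilrb4a, a receptor of myeloid cells, at 10.70, were above their MEF levels of 9.78 and 10.23 there.

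Most genes had 1 probe set. Of the 136 higher genes 6 had another above the floor on some array, Alpl, Ddr1, Abat, Emb, Rgs5 and Heg1, and 0 of these were past 2-fold on all 4 arrays. Those second probe sets were dim, at most 6.15 on any induced array. For Ddr1, Abat and Rgs5 they were at or under the floor on MEF and on at least 2 induced arrays. Those of Alpl, Emb and Heg1 were above the floor on MEF. Their differences ran from 0.156 to 0.894, from -0.249 to 0.368 and from -0.153 to 0.386. Why the second probe sets did not follow the brightest ones was not tested. Of 15 such probe sets of 8 lower genes 4 were past it, 1 each of Fmod and Ccdc80 and 2 of Gm3893. In 305 genes with more than 1 probe set above the floor, the mean difference was compared between the 2 brightest. The technical spread per probe set was 0.354 on the log2 scale. It is the standard deviation of the gap between them divided by the square root of 2. This spread covers neither cultures nor animals.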

How the data were processed

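RNA of 6 cell samples was measured on 1 Affymetrix array each, from total RNA labelled with biotin, per the labels' protocols. A single table from the authors held their log2 values. The submitters' processing notes name Affymetrix Expression Console. How it summarised and normalized the probes was not given in the sources used here. That the values are log2 was inferred from their range.

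Of 41345 probe sets, 5333 controls were left out and 23521 carried exactly 1 gene symbol. Each of 22180 genes was taken at its probe set of highest mean over the 6 arrays. No detection calls were used, so the floor of 5.01 stood in for them. Differences were taken on floored values, and limma 3.58.1 (R 4.3.3, lmFit and eBayes, Benjamini-Hochberg adjustment) ran on unfloored values of the 14168 measured genes, with 7.88 total degrees of freedom. A simulated table was used to check the counts and the fit. The number of arrays, 1 per condition, limits the precision, and p-values measure only the spread between these arrays. Promoters came from a RefSeq table of GRCm38.p6.

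The genes, the 37 lists and the tests were chosen with earlier results of these data known. Named genes were the 15 per direction of largest smallest difference, up to 4 members per list and direction, the 5 of smallest and of largest range, up to 5 of opposite directions, the 3 just inside and outside the threshold, and cell type markers. The text gives a selection of these. Thbs1, Bmp6, Gdf6 and the genes listed by promoter match or second probe set were named after their values were seen. Alternatives were the normalization, the floor, the probe set rule, the threshold, the limma filter and trend, and leaving out each induced array.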

Additional observations from a re-analysis of the deposited data

How the results depend on the processing

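Housekeeping centring turned the balance of shared genes from mostly higher to mostly lower and changed the sign of some list medians, as given beside them. Higher genes numbered 136, and 69 with housekeeping centring, 70 with the floor at percentile 75 and 31 at a threshold of 4-fold. Lower genes numbered 76, and 237 with housekeeping centring and 8 at 4-fold. Leaving out each induced array in turn gave 140 to 197 higher and 84 to 154 lower genes, the latter highest without day 7, and all 136 and 76 genes kept their call, as the rule then asks for fewer arrays. Limma called 39 higher and 17 lower genes. With floored values it called 0 and 0, with housekeeping centring 81 lower. Without 1 induced array it called 12 to 45 higher and 2 to 29 lower genes, with 12 and 2 without day 3, 24 and 7 without day 14, and 13 and 3 without sorted cells. The cause of these shifts was not tested. Of the list medians under the alternatives, 302 moved by less than the spread and 31 by more, and of the smallest differences of named genes 675 and 144. No paired analysis was possible because each condition has 1 array and no replicate numbers are shared. The MEF array cannot be left out, so its own error has no check here, and genes near the floor have only lower bounds.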

Other observations

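Several gene lists not described above held 1 or 2 shared genes, where 0.96% of all measured genes were shared higher and 0.536% lower. Of 17 measured smooth muscle and myofibroblast genes 2 were higher on all 4 induced arrays, Ankrd1 and Des. Des, the muscle intermediate filament desmin, was 5.25 on MEF and 7.86, 7.85, 7.09 and 8.42 on day 3, day 7, day 14 and sorted cells (limma adjusted p = 0.0773). Nes, the progenitor filament nestin, was the 1 shared gene of 18 measured proneural and neural progenitor genes, at 5.48 on MEF and between 6.50 and 7.38, and fell under 2-fold with housekeeping centring. Fabp7, a fatty acid carrier of radial glia, was the 1 shared gene of 7 measured astrocyte genes, at 5.98 on MEF and 7.73, 8.20, 7.90 and 8.15 (limma adjusted p = 0.0337). Dgat2, which completes triglyceride synthesis, was 4.84 on MEF and between 6.26 and 7.03. Flt1, a receptor of vascular endothelial growth factor, was lower, at 7.85 on MEF and between 5.37 and 6.77, while the endothelial marker Cdh5 was near or under the floor on all 6 arrays.

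Of the 37 lists 13 held no shared gene. With no minimum size, 17 of 29 measured Hox genes and 18 of 28 respiratory chain genes lay above MEF on all 4 arrays, against 12 of 24 housekeeping genes and 25% of all measured genes. Their median mean differences were 0.36 and 0.30, and under housekeeping centring 0.03 and -0.08, where all measured genes had -0.29. In the glycolysis list 12 of 17 genes lay above MEF on all 4 arrays, with a median of 0.34 that became -0.04 under that centring.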
